A study of Mus musculus with 12 samples.

Results

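The 4 creatine kinase genes, *Ckm*, *Ckb*, *Ckmt2* and *Ckmt1*, and the 2 genes of creatine synthesis, *Gatm* and *Gamt*, were followed across hearts of mouse embryos at E11.5 and E12.5, as 6 of the 20368 genes in the deposited table. These members were listed by name but chosen by measured values too, the mutant to control differences at E12.5, where *Ckmt1* was among the larger rises. Values from that comparison are therefore given for them as a description, with no p-value. Counts of members called there are a description too. Control hearts were *Mesp1Cre*;*Hira+/fl* and mutant hearts *Mesp1Cre*;*Hira-/fl*, on a CD1-ICR background, with 3 libraries in each of the 4 groups. All 12 libraries therefore came from embryos that carried the Cre and a floxed *Hira* allele, and the mutants also carried a null allele in every cell. *Hira* encodes a chaperone that deposits histone H3.3. *Mesp1Cre* recombines in the early cardiac mesoderm, from which heart muscle, endocardium and epicardium descend, whereas neural crest cells lie outside this lineage. The labels do not say whether a library came from 1 heart or from several, so p-values measure the spread between these libraries only.

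Creatine kinase moves phosphate between ATP and creatine, so that phosphocreatine can serve as a store and carrier of high-energy phosphate in muscle and nerve. Cytosolic enzymes work as dimers of the muscle subunit, encoded by *Ckm*, and the brain subunit, encoded by *Ckb*, and heart muscle is known to gain the muscle subunit as it matures. Mitochondrial enzymes sit between the inner and outer membranes: *Ckmt2* encodes the sarcomeric form of striated muscle and *Ckmt1* the ubiquitous form, best known from brain, gut and kidney epithelia. Creatine itself is made in 2 steps, by *Gatm*, which forms guanidinoacetate from arginine and glycine, and by *Gamt*, which methylates it, and it enters cells through the transporter encoded by *Slc6a8*.

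The libraries held 11994148 to 17483982 reads on genes. *Hira* itself had between 735 and 1533 reads per library, and the log2 ratio of mutants to controls, the log2 of the fold change that edgeR fits, was -0.26 (SE 0.14, adjusted p = 0.607, edgeR) at E11.5 and -0.01 (SE 0.12, adjusted p = 0.962, edgeR) at E12.5. Its reads were counted over the whole gene and do not check the excision of 1 exon. All 12 genes of the cardiomyocyte list had reads in every library, with summed levels between 26571 and 35348 CPM (counts scaled to library depth). None of them was called between genotypes by edgeR or DESeq2, and 0 at E11.5 and 5 at E12.5 had an unadjusted p under 0.05 by edgeR. Over all genes tested, the number under 0.05 was 1242 of 12197 at E11.5 and 2621 of 12257 at E12.5. With stage the number was 4017 of 12252 in controls and 1134 of 12238 in mutants. Counts of this kind for any list below stand beside these. Reads on Y-linked genes, which mark male RNA, reached 100 in all 3 control libraries and 1 of the 3 mutant libraries at E11.5, so sex and genotype overlap there. At E12.5 they did so in 1 library of each genotype, so sex and stage overlap in controls. In whole hearts, fewer cells of a type and less RNA per cell cannot be told apart.

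The stretches before the starts of the mitochondrial kinase genes, which stood higher in the E12.5 mutants, and of *Ckm*, the member with the largest stage change, are shown with 2 motifs in capitals on either strand. GAGAGA is a short GAGA repeat, the kind of site known from the GAGA factor of flies, and CANNTG is the E-box read by myogenic and other basic helix-loop-helix factors. The sequences are RefSeq's on GRCm38.p6, written 5′ to 3′ on the strand of the gene, and stop where the gene begins in the deposited table, at chr2:121357526-121357713 (+ strand) for *Ckmt1*, chr13:91876886-91877135 (- strand) for *Ckmt2* and chr7:19410844-19411093 (+ strand) for *Ckm*.
Ckmt1: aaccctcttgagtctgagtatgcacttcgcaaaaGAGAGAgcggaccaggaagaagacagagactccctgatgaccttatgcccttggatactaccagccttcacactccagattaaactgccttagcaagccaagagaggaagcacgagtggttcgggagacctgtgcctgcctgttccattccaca
Ckmt2: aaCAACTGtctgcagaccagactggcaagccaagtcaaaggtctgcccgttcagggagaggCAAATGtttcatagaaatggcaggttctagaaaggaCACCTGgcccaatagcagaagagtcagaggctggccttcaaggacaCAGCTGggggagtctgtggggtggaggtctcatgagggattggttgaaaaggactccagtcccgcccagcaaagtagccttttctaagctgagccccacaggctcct
Ckm: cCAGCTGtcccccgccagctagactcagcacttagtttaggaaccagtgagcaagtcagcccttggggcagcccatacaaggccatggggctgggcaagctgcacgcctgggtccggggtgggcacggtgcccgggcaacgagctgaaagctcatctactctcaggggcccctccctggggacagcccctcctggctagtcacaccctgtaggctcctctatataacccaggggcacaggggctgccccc

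All 6 members had a promoter entry, and 250 bases before each start were searched. The first of the *Ckmt1* starts held 1 GAGAGA and no E-box, and the second start, inside the gene, held neither. *Ckmt2* held 4 E-boxes and no GAGAGA, *Ckm* held 1 E-box and no GAGAGA, *Gatm* held 1 of each, and *Ckb* and *Gamt* held neither. The motif AAGTG, the core read by NKX2.5, stood once in *Ckmt1* and once in *Ckm*. Of all 32851 promoters, 20.2% held GAGAGA, 66.2% an E-box and 40.7% AAGTG within the same length. The letters alone do not show a bound site.

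In levels per gene length, *Ckb* was the most abundant member in every group. Levels are in RPKM, in which reads are divided by gene length and by the TMM-scaled depth of the library; lengths are those behind the deposited values. In E11.5 controls the means ran from *Ckb* (101 ± 14.7 RPKM, SD, n = 3) through *Gamt* (38.8 ± 3.70), *Gatm* (17.8 ± 2.21), *Ckm* (12.9 ± 3.04) and *Ckmt2* (4.35 ± 1.16) to *Ckmt1* (1.07 ± 0.590), and of these neighbours *Gatm* and *Ckm* overlapped between libraries. In E12.5 controls *Ckm* stood second, and no neighbours overlapped. In the mutants *Ckmt1* left the last place to *Ckmt2* at E12.5, although the ranges of the pair overlapped, at 6.69 to 9.33 RPKM for *Ckmt1* and 5.55 to 7.04 for *Ckmt2*. In E11.5 mutants the ranges of *Ckm*, *Ckmt2* and *Ckmt1* all overlapped.

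**Figure D1:**
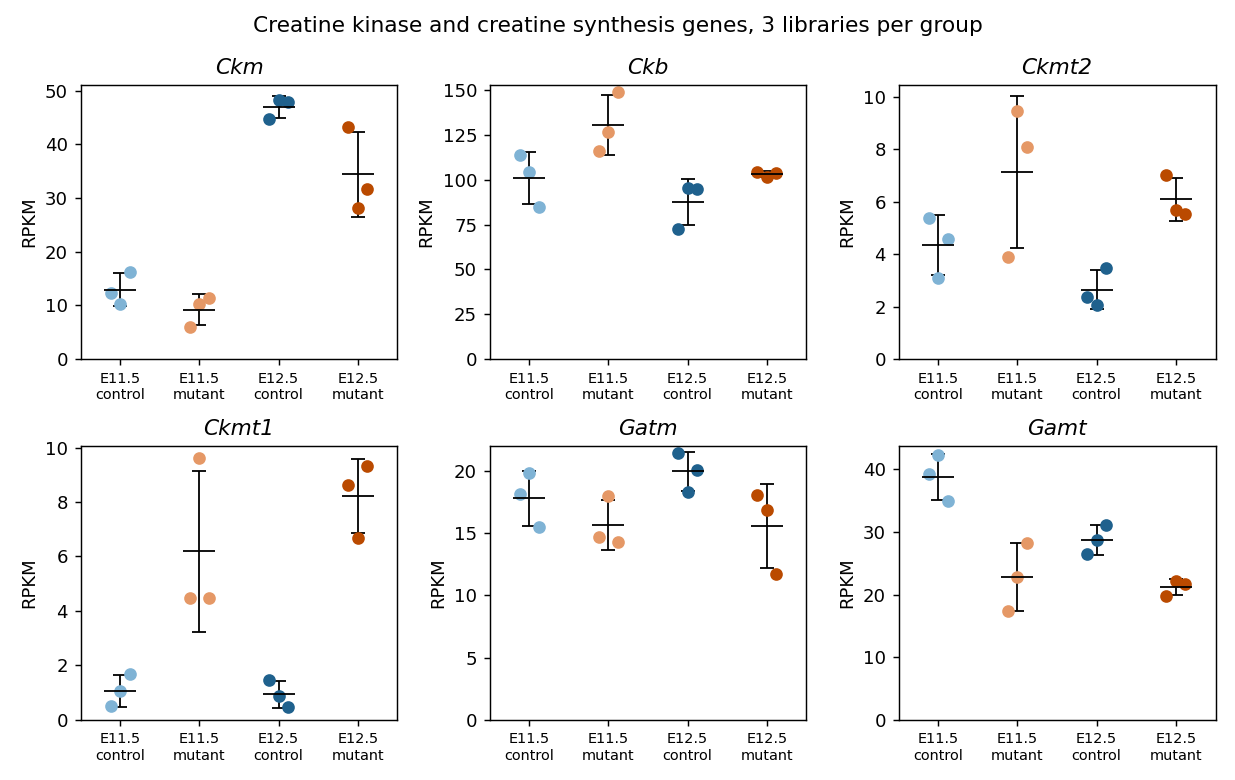
Level of each gene in RPKM (vertical axes, starting at 0) in the 3 libraries of each of the 4 groups; points are libraries, horizontal bars group means and error bars the SD. *Ckmt1* stands at 0.465 to 1.67 RPKM in the 6 control libraries and at 4.46 to 9.61 in the 6 mutant libraries, and *Ckm* is higher in every E12.5 library than in every E11.5 library.

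Ubiquitous mitochondrial creatine kinase showed the widest gap between the genotypes. In GRCm38 coordinates, which hold for all members, *Ckmt1* covers 121357714 to 121363737 of chromosome 2 (+ strand). It had 12, 26 and 38 reads in the E11.5 control libraries and 110, 253 and 82 in the E11.5 mutant libraries. At E12.5 it had 35, 25 and 12 reads in controls and 203, 181 and 225 in mutants. The groups did not overlap at either stage, and the lowest mutant library stood above the highest control library.

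The E11.5 libraries lie outside the comparison that chose the members, though the members were chosen with earlier results of these data known. At E11.5 the log2 ratio of *Ckmt1* was 2.53 (SE 0.46, 5.80-fold, adjusted p = 0.0929, edgeR's quasi-likelihood test), which did not pass the threshold of 0.05. Its adjusted p ran from 3.70e-05 with DESeq2 to 0.337 over the alternatives, and it was called in 4 of 15 of them. With the sex of the embryo in the model the value was 2.07 (SE 0.56, adjusted p = 0.126, edgeR). At E12.5 the log2 ratio was 3.14 (SE 0.30, 8.84-fold). Leaving out each library in turn gave 2.06 to 2.996 at E11.5 and 2.83 to 3.58 at E12.5. With 3 libraries against 3, an exact two-sided permutation test cannot go below 0.1, so no single gene could pass by that test.

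Some markers of other cell types were also higher in mutants. The 7 genes of the epithelium list summed to 173 to 243 CPM in control and 252 to 325 in mutant hearts at E11.5, and to 92.1 to 130 and 210 to 264 CPM at E12.5, and 3 of its 4 tested genes (*Krt8*, *Krt18* and *Krt19*) were called higher in E12.5 mutants. The list was chosen with earlier results of these data known, and the paper reported *Krt8* and *Krt19* as upregulated, among sarcomeric genes. These calls are therefore a description. *Epcam* and *Cdh1*, defining markers of epithelia, did not follow the genotype. *Epcam* had 138, 25 and 33 reads in E11.5 controls and 94, 17 and 16 in mutants. At E12.5 it had 25, 6 and 3 reads in controls and 14, 13 and 78 in mutants. The 5 genes of the neuron list summed to 19.5 to 29.8 and 33.6 to 62.2 CPM in controls and mutants at E11.5, and to 16.1 to 21.5 and 39.5 to 47.1 at E12.5, where *Tubb3* and *Stmn2* were called higher. At E11.5 no gene of either list was called by edgeR; 1 epithelium and 2 neuron genes had an unadjusted p under 0.05, and DESeq2 called 1 and 2. The part of these cells in the *Ckmt1* result was not tested.

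The sarcomeric form moved the same way at E12.5, by less. *Ckmt2* covers 91853387 to 91876885 of chromosome 13 (- strand). It had 123, 72 and 97 reads in E11.5 controls and 89, 233 and 139 in E11.5 mutants, which overlapped. Its log2 ratio at E11.5 was 0.71 (SE 0.35, adjusted p = 0.544, edgeR). At E12.5 it had 54, 55 and 84 reads in controls and 155, 144 and 125 in mutants, with every mutant library above every control library. The E12.5 log2 ratio was 1.20 (SE 0.22, 2.30-fold). The summed cardiomyocyte markers stood at 28883 to 29505 CPM in E12.5 controls and 29226 to 35348 in mutants.

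The cytosolic kinases differed less between genotypes. *Ckm*, on chromosome 7 from 19411094 to 19421583 (+ strand), had 267, 226 and 328 reads in E11.5 controls and 131, 240 and 188 in E11.5 mutants, a log2 ratio of -0.49 (SE 0.27, adjusted p = 0.612, edgeR). With sex in the model it was -0.16 (SE 0.34, adjusted p = 0.826, edgeR), and leaving out each library in turn gave -0.67 to -0.25, the latter without mutant replicate 1. At E12.5 it had 964, 1222 and 1100 reads in controls and 909, 679 and 681 in mutants. Scaled for depth, the E12.5 libraries stood at 44.7 to 48.4 RPKM in controls and 28.2 to 43.3 in mutants, a log2 ratio of -0.45 (SE 0.14). Mutant replicate 1 lay closest to the controls, and the value ran from -0.65 without it to -0.32 without mutant replicate 2.

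*Ckb*, on chromosome 12 from 111669355 to 111672338 (- strand), had 2586, 2404 and 1796 reads in E11.5 controls and 2650, 3100 and 2553 in E11.5 mutants. Its levels did not overlap at E11.5, at 85.0 to 114 RPKM in controls and 116 to 149 in mutants, but its log2 ratio of 0.37 (SE 0.15, adjusted p = 0.460, edgeR) did not pass the test, nor did 0.57 (SE 0.18, adjusted p = 0.152, edgeR) with sex in the model. At E12.5 it had 1637, 2516 and 2276 reads in controls and 2285, 2555 and 2333 in mutants, a log2 ratio of 0.24 (SE 0.10).

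**Figure D2:**
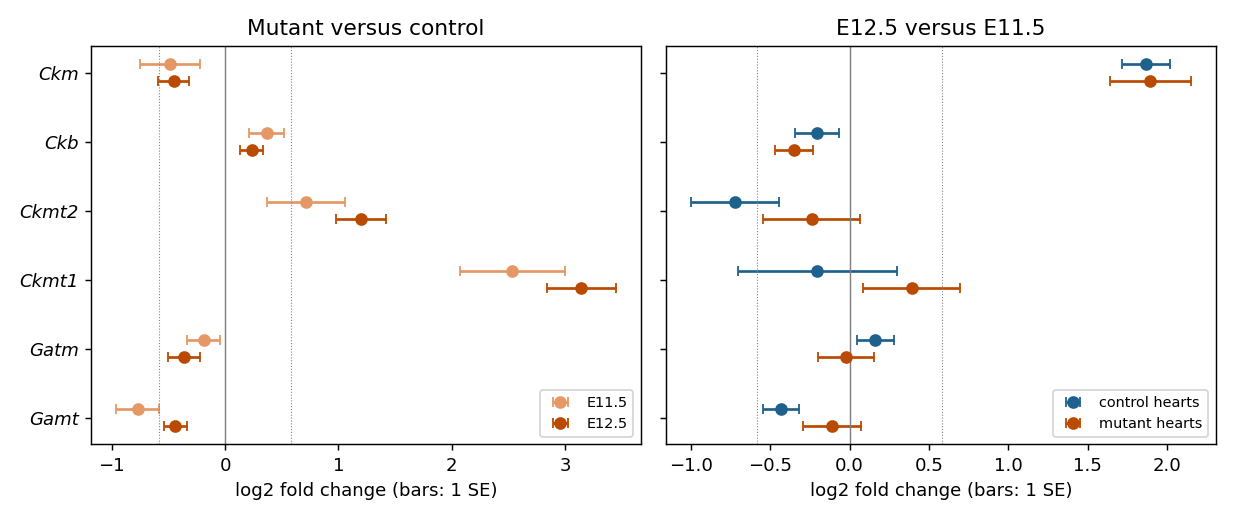
Log2 fold change, the log2 ratio of the text, of each gene (horizontal axes) with 1 SE, for mutant against control hearts at both stages on the left and for E12.5 against E11.5 hearts of both genotypes on the right; dotted lines mark 1.5-fold. *Ckmt1* stands at 2.53 and 3.14 on the left, and *Ckm* at 1.87 and 1.89 on the right; the E12.5 genotype values are descriptive, because that comparison chose the genes.

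The mean level of both enzymes of creatine synthesis was lower in mutants at both stages. *Gamt*, on chromosome 10 from 80258151 to 80261012 (- strand), had 570, 623 and 471 reads in E11.5 controls and 254, 356 and 309 in E11.5 mutants. Every mutant library lay below every control library, at 17.4 to 28.3 against 34.9 to 42.2 RPKM. The log2 ratio was -0.77 (SE 0.19, 1.71-fold lower, adjusted p = 0.173, edgeR), which did not pass the threshold. With sex in the model it was -0.45 (SE 0.21, adjusted p = 0.273, edgeR), and DESeq2 gave -0.77 (adjusted p = 0.0179). At E12.5 *Gamt* had 380, 484 and 478 reads in controls and 277, 356 and 311 in mutants, without overlap in RPKM, and a log2 ratio of -0.44 (SE 0.10). The summed level of the 5 epicardium genes was also lower in E11.5 mutants, at 270 to 360 against 380 to 601 CPM, with a median log2 ratio of -0.72. None of them was called by edgeR, 4 had an unadjusted p under 0.05, and DESeq2 called 2. *Msln*, of the same list, overlapped, with 136, 102 and 252 reads in E11.5 controls and 155, 165 and 122 in mutants. At E12.5, where *Gamt* was again lower in mutants, the epicardium sum was not. It stood at 277 to 395 CPM in controls and 354 to 400 in mutants, with a median log2 ratio of 0.14. The part of epicardial cells in the *Gamt* result was not tested.

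*Gatm*, on chromosome 2 from 122594467 to 122611303 (- strand), had 656, 731 and 521 reads in E11.5 controls and 536, 701 and 390 in E11.5 mutants, a log2 ratio of -0.19 (SE 0.15, adjusted p = 0.781, edgeR). At E12.5 the controls had 771, 772 and 769 reads and the mutants 631, 678 and 419, with mutant replicate 3 the lowest. The log2 ratio there was -0.36 (SE 0.14). Erythroid genes also differed at E12.5: the 7 genes of the list summed to 3897 to 6360 CPM in controls and 2128 to 2696 in mutants, and 5 of the 6 tested were called lower. At E11.5 they stood at 4354 to 5438 CPM in controls and 4494 to 5657 in mutants, and none was called by edgeR or DESeq2 or had an unadjusted p under 0.05 (0 of 6). The part of these cells in the *Gamt* and *Gatm* values was not tested.

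Uptake was read from *Slc6a8*, which is on the X chromosome and was tested in fits that included the X and Y genes. It had 1008, 988 and 705 reads in E11.5 controls and 929, 906 and 658 in E11.5 mutants, a log2 ratio of -0.05 (SE 0.14, adjusted p = 0.952, edgeR). At E12.5 it had 1184, 1353 and 1066 reads in controls and 794, 844 and 823 in mutants. The E12.5 groups did not overlap, and its level was lower in mutants by a log2 ratio of -0.48 (SE 0.09, adjusted p = 0.0134, edgeR), which is under 1.5-fold. With stage it changed by 0.30 (SE 0.13, adjusted p = 0.132, edgeR) in controls and by -0.14 (SE 0.10, adjusted p = 0.728, edgeR) in mutants.

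In counts, 0 of the 6 members were called at E11.5, with 0.05 as the highest adjusted p and 1.5-fold as the smallest change, where 0.115% of all genes tested were called. Of the 6, 3 had an unadjusted p under 0.05 by edgeR, beside 1242 of the 12197 genes tested. DESeq2 called 2, *Ckmt1* and *Gamt*, among the 248 genes it called. At E11.5, 3 of the 6 did not overlap between genotypes, as did 16.3% of all genes tested. At E12.5, 2 of the 6 were called, *Ckmt1* and *Ckmt2*, beside 2.95% of all genes, and all 6 did not overlap, beside 26.3% of all genes. The *Ckmt2* call stood in 12 of 15 alternatives, which refit the libraries that chose the members and so lend it no support. It was lost without E12.5 control replicate 1, without E12.5 mutant replicate 1 and with all 12 libraries in 1 fit. Nothing is read from the E12.5 counts, since that comparison chose the members. The median log2 ratio of the 6 was 0.09 at E11.5 and -0.06 at E12.5, beside medians over all genes of 0.00014 and -0.0018.

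The mutant effects at both stages were set side by side by subtraction. The E12.5 effect minus the E11.5 effect was 0.60 (SE 0.62) for *Ckmt1*, 0.49 (SE 0.44) for *Ckmt2* and 0.33 (SE 0.22) for *Gamt* on the log2 scale. It was 0.04 (SE 0.31) for *Ckm*, -0.13 (SE 0.19) for *Ckb* and -0.17 (SE 0.22) for *Gatm*. Each of the 6 differences was within 2 SE of zero, and none was tested, because each holds the comparison that chose the members.

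With stage, the main change was in the muscle subunit. In control hearts *Ckm* rose from 12.9 ± 3.04 RPKM at E11.5 to 47.0 ± 1.98 at E12.5 (SD, n = 3 each), a log2 ratio of 1.87 (SE 0.15, 3.64-fold, adjusted p = 9.2e-04, edgeR), and was called under all 16 alternatives. In mutant hearts it rose from 9.23 ± 2.87 to 34.4 ± 7.93 RPKM, a log2 ratio of 1.89 (SE 0.25, 3.71-fold, adjusted p = 0.0199, edgeR). The call in mutants was lost without E12.5 mutant replicate 1 (1.69, adjusted p = 0.0881, edgeR), replicate 2 (2.02, adjusted p = 0.0873, edgeR) or replicate 3 (1.96, adjusted p = 0.103, edgeR). The stage comparisons share their libraries with the genotype comparisons. The skeletal muscle list, whose genes *Myod1*, *Myf5* and *Pax7* had 0 reads in all E11.5 control libraries, summed to 31.1 to 53.4 CPM in E11.5 controls and 17.1 to 34.1 in E12.5 controls. *Mylpf* had the most reads of the list in these libraries, with 361, 488 and 539 reads in E11.5 controls and 130, 173 and 294 in E12.5 controls. Other genes of the list went the other way: *Myog* had 1, 1 and 5 reads and then 10, 12 and 9, and *Myh8* had 3, 8 and 3 and then 11, 25 and 23. In controls, 1 of the 3 genes tested was called lower with stage by edgeR, 1 had an unadjusted p under 0.05, and DESeq2 called 1. The sum in mutants was 35.1 to 49.1 CPM at E11.5 and 21.5 to 36.9 CPM at E12.5. There none of the 3 genes tested was called with stage by edgeR, 2 had an unadjusted p under 0.05, and DESeq2 called 2. Of the 12 cardiomyocyte genes, edgeR called 1 higher with stage in controls, 6 had an unadjusted p under 0.05, and DESeq2 called 2. In mutants 0 of the cardiomyocyte genes were called with stage by either, or had an unadjusted p under 0.05. The part of either cell type in the *Ckm* result was not tested.

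*Gamt* was lower in E12.5 than in E11.5 control hearts, at 28.8 ± 2.38 against 38.8 ± 3.70 RPKM (SD, n = 3 each), by a log2 ratio of -0.43 (SE 0.11, adjusted p = 0.0397, edgeR), which is under 1.5-fold. When each library was left out in turn, its adjusted p stayed under 0.05 only without E11.5 control replicate 2 (adjusted p = 0.038, edgeR). With sex in the model the value was -0.32 (adjusted p = 0.568, edgeR). The other 4 members did not pass in control hearts, with log2 ratios of -0.72 (SE 0.28, adjusted p = 0.105, edgeR) for *Ckmt2*, -0.21 (SE 0.14) for *Ckb*, -0.20 (SE 0.50) for *Ckmt1* and 0.16 (SE 0.12) for *Gatm*. Without E11.5 control replicate 2 the *Ckmt2* value was -0.93 (adjusted p = 0.0266, edgeR) and was called. With sex in the model the *Ckmt2* value was -0.32 (SE 0.37, adjusted p = 0.782, edgeR). The *Ckmt1* value in that model was -1.19 (SE 0.73, adjusted p = 0.599, edgeR). In mutant hearts *Ckb* did not overlap between stages, at a log2 ratio of -0.35 (SE 0.12, adjusted p = 0.383, edgeR), and *Ckmt1* changed by 0.39 (SE 0.31, adjusted p = 0.742, edgeR). Of the 6 members, 1 was called in control hearts beside 5.28% of all genes, and 1 in mutant hearts beside 0.556%. The libraries of 2 members did not overlap between stages in each genotype, beside 37.4% of all genes in controls and 17.4% in mutants.

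The make-up of creatine kinase mRNA was taken as the share of each gene in the summed RPKM of all 4 kinase genes. At E11.5 the sums were 119 ± 12.4 RPKM in controls and 153 ± 21.5 in mutants, and at E12.5 they were 138 ± 14.7 and 152 ± 10.7 (SD, n = 3 each). *Ckb* made up 84.4% ± 4.66 and 85.4% ± 3.94 of the sum in E11.5 controls and mutants, and 63.2% ± 2.82 and 68.1% ± 3.88 at E12.5. *Ckm* made up 11.0% ± 3.55 and 5.93% ± 1.16 at E11.5, and 34.2% ± 2.36 and 22.5% ± 3.57 at E12.5. The ratio of *Ckb* to *Ckm* ran from 5.24 to 10.2 in E11.5 controls and from 12.4 to 19.4 in E11.5 mutants. At E12.5 it ran from 1.63 to 1.98 in controls and from 2.41 to 3.60 in mutants.

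The mitochondrial pair took 4.59% ± 1.16 of the sum in E11.5 controls and 8.63% ± 3.15 in E11.5 mutants, and 2.62% ± 0.576 and 9.39% ± 0.605 at E12.5. In single libraries the mitochondrial share was 3.50% to 5.81% and 6.41% to 12.2% at E11.5, and 2.01% to 3.16% and 8.71% to 9.88% at E12.5, so the genotypes did not overlap at either stage. Within the pair, *Ckmt1* stood at 0.134 to 0.606 times the level of *Ckmt2* in controls at E12.5 and at 1.18 to 1.68 times in mutants. These shares are a description over the chosen genes and were not tested.

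**Figure D3:**
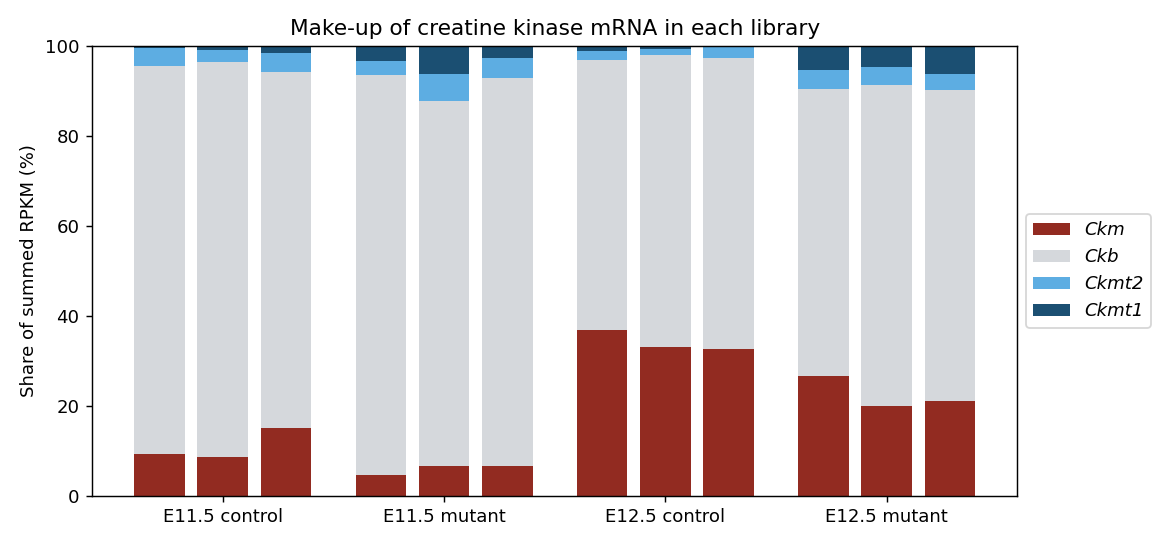
Share of each creatine kinase gene in the summed creatine kinase RPKM (vertical axis, percent), 1 bar per library, 3 libraries in each of the 4 groups in replicate order. The *Ckm* share at E12.5 is 32.6% to 36.9% in controls and 19.8% to 26.5% in mutants, and the mitochondrial share is 2.01% to 3.16% and 8.71% to 9.88%.

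The genes around the pathway were read from lists chosen with earlier results known. Of 13 genes of methyl group, arginine and glycine metabolism, which hold both makers and users of these, 10 were tested. Of them, 2 were called higher in E12.5 mutants. *Ass1*, which makes argininosuccinate on the way to arginine, rose from 5.43 ± 0.790 to 9.65 ± 1.97 RPKM (SD, n = 3 each), a log2 ratio of 0.82 (SE 0.17, adjusted p = 0.0225, edgeR). *Gldc*, the decarboxylase of the glycine cleavage system, rose from 3.24 ± 0.549 to 5.93 ± 0.808 RPKM, a log2 ratio of 0.87 (SE 0.15, adjusted p = 0.0106, edgeR). At E11.5 none was called: *Ass1* stood at 1.16 (SE 0.19, adjusted p = 0.081, edgeR) and *Gldc* at 0.83 (SE 0.20, adjusted p = 0.173, edgeR), while DESeq2 called 2 of the list. No gene of the list was called with stage by edgeR or DESeq2, and 3 in controls and 4 in mutants had an unadjusted p under 0.05 by edgeR. Among all genes tested these were 4017 of 12252 in controls and 1134 of 12238 in mutants. The list's median log2 ratio was 0.04 at E11.5 and 0.13 at E12.5.

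Of 7 genes listed as mitochondrial partners of creatine kinase, outer membrane channels, inner membrane carriers and a matrix cyclophilin, 6 were tested. None was called in the 4 comparisons by edgeR or DESeq2. By edgeR, 1 had an unadjusted p under 0.05 in each genotype comparison and in controls with stage, and 0 in mutants with stage. The 2 largest changes were those of *Ppif*, the matrix cyclophilin, in E11.5 mutants (0.33, SE 0.14, adjusted p = 0.462, edgeR), and of the channel gene *Vdac3* with stage in controls (-0.31, SE 0.11, adjusted p = 0.0851, edgeR). Of 12 adenylate kinases and AMP deaminases, which also buffer adenine nucleotides, 8 were tested and none was called between genotypes by edgeR, with 3 at E11.5 and 2 at E12.5 under an unadjusted p of 0.05, while DESeq2 called 2 and 1. *Ampd3* stood at 1.20 (SE 0.21, adjusted p = 0.087, edgeR) and *Ak5* at -1.19 (SE 0.23, adjusted p = 0.0981, edgeR) at E11.5. *Ak5* fell with stage in control hearts, from 2.35 ± 0.383 to 0.970 ± 0.114 RPKM, a log2 ratio of -1.28 (SE 0.22, adjusted p = 0.0143, edgeR).

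The M-band, where muscle creatine kinase binds in the sarcomere, was read from 5 genes, of which 3 or 4 were tested. *Myom2*, encoding M-protein, was called higher in E12.5 mutants, at 1.28 ± 0.226 against 0.563 ± 0.0998 RPKM, a log2 ratio of 1.19 (SE 0.22, adjusted p = 0.0151, edgeR). In E11.5 mutants *Myom2* stood at 0.226 ± 0.0173 RPKM, and its log2 ratio with stage in mutants was 2.48 (SE 0.26). That value is a description, because the gene passed the filter of 0.5 RPKM there only through its E12.5 level. It was not tested between genotypes at E11.5 or with stage in controls. At E12.5 *Myom1*, encoding myomesin, stood at 166 ± 21.9 RPKM in controls and 146 ± 33.7 in mutants and did not pass the test (-0.19, SE 0.15, adjusted p = 0.492, edgeR).

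The genes most like *Ckm*, *Ckmt1*, *Gatm* and *Gamt* were taken as the 3 with the highest Pearson r of log2(CPM + 1) over the 12 libraries, which share their groups and depth. For *Ckm* they were *Parp10* (r = 0.947), *Kcnj12* (r = 0.940) and *Mlf1* (r = 0.937). For *Ckmt1* they were *Myo3b* (r = 0.954), *Rragd* (r = 0.943) and *Cdh16* (r = 0.933). *Gatm* was most like *Nit1* (r = 0.887), *Gpatch2l* (r = 0.871) and *0610030E20Rik* (r = 0.856), and *Gamt* most like *Nadk* (r = 0.942), *Nmb* (r = 0.917) and *Ramp1* (r = 0.917). By Spearman's rho, none of these genes stayed in the first 3 for *Ckmt1* or *Gatm*.

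The longest identical run between transcripts of *Ckmt1* and *Ckmt2* was 39 bases, and between *Ckb* and *Ckm* 20 bases. *Ckb* shared runs of 51 and 53 bases with its pseudogenes *Ckb-ps1* and *Ckb-ps2*, so part of its level is uncertain. *Ckm* overlaps the antisense gene *A930016O22Rik* by 3952 bases and *Ckmt2* the antisense gene *1700119I11Rik* by 613 bases in GENCODE vM21. These are overlaps of whole gene spans, introns included, and shared exons were not looked for. The use of the strand is not given in the sources used here, so reads of these partners in any shared exon could count towards *Ckm* or *Ckmt2*.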

How the data were processed

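RNA from embryonic hearts was sequenced as paired ends. Per the labels, reads were aligned by the authors with Bowtie2 (version 2) to mm10 and normalised with DESeq; the counting program is not given in the sources used here. The authors deposited average counts per group, means of raw counts that can hold fractions and so have the unit of expected counts, and per-library values named RPKM. The authors' fold changes, z scores and p-values were not used. Each deposited value was a whole count multiplied by gene length and a library factor, so counts were recovered from the averages for 17827 genes, all within 4.07e-10 of a whole number. Another 1597 genes had no read.

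Genes whose mean RPKM reached 0.5 were tested with the quasi-likelihood test of edgeR 4.0.16 on TMM-scaled counts, with Benjamini-Hochberg adjustment over all genes; X and Y genes were left out, as in the authors' comparisons. Called genes changed by 1.5-fold or more with an adjusted p up to 0.05. Libraries with 100 or more counts over 4 Y-linked genes were taken as male. Alternatives were DESeq2 1.42.0, limma 3.58.1 on log2(RPKM + 0.5), other filters and scalings, a replicate block, sex as a covariate and each library left out. Fits with the X and Y genes were chosen after seeing the data. The members and gene lists (cardiomyocyte, skeletal muscle, smooth muscle, epithelium, epicardium, endothelium, neuron, erythroid and liver markers, and pathway genes) were chosen with earlier results of these data known. Genes named were the 6 members, *Hira*, pathway genes called or else with the 2 largest changes, and the 3 genes most like each member (for *Ckb* and *Ckmt2* not reported here); other genes were named after their values were seen. The scripts were tested on simulated data. Standard errors came from the F statistic of edgeR.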

Additional observations from a re-analysis of the deposited data

How the results depend on the processing

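Most values of the members kept their direction and their side of the thresholds. At E11.5, 14 genes were called. The number was 73 with no filter on low values, 6 at a mean RPKM of at least 5, 248 with DESeq2, 27 with limma, 29 with sex as a covariate and 221 with all 12 libraries in 1 fit, and members called were 1 with no filter, 2 with DESeq2 and 2 with all 12 libraries. At E12.5, 362 genes were called, against 157 at a mean RPKM of at least 5, 132 with all 12 libraries and 613 with no fold threshold. Members called at E12.5 were 0 at a mean RPKM of at least 5, where *Ckmt1* and *Ckmt2* were not tested, and 1 with all 12 libraries. In controls, 647 genes were called with stage, against 363 at a mean RPKM of at least 5, 19 with sex, 336 with all 12 libraries and 1402 with no fold threshold, where 2 members passed. In mutants, 68 were called with stage, against 119 with no filter, 29 at a mean RPKM of at least 5, 227 with DESeq2 and 119 with all 12 libraries. DESeq2 called 2 genes of the methyl and amino acid list and 2 of the adenylate list at E11.5, and 1 of the adenylate list at E12.5. The cause of these changes was not tested.

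Whether the replicate numbers pair the libraries was not tested. Deviations of same-numbered libraries correlated at -0.13 to 0.44, and those of different-numbered libraries were not computed. Between genotypes at E11.5 the values were -0.05, 0.44 and 0.31 for replicates 1, 2 and 3. A replicate block gave 73 genes and 1 member (*Ckmt1*) at E11.5, 36 genes and 0 members with stage in mutants (*Ckm*, adjusted p = 0.0767, edgeR).

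Leaving out each library in turn gave 0 to 15 genes at E11.5, 151 to 368 at E12.5, 44 to 1407 with stage in controls and 1 to 123 with stage in mutants, and members called were 0, 1 to 2, 1 to 2 and 0 to 1. Changes near zero turned sign with stage: *Ckmt1* in controls (-0.65 to 0.26; 0.26 without E11.5 control replicate 3 and 0.12 without E12.5 control replicate 3), and in mutants *Ckmt2* (-0.54 to 0.025; the latter without E11.5 mutant replicate 2), *Gatm* (0.00063 at a mean RPKM of at least 5, and -0.14 to 0.16, with 0.09 without E11.5 mutant replicate 2 and 0.16 without E12.5 mutant replicate 3) and *Gamt* (-0.28 to 0.079; the latter without E11.5 mutant replicate 3). With sex in the model the stage value of *Ckmt1* in controls was -1.19 (SE 0.73), outside its range above. *Ckmt1* rests on as few as 12 reads per control library.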

Other observations

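Other marker lists gave these values. The 5 epicardium genes summed to 277 to 395 CPM in controls and 354 to 400 CPM in mutants at E12.5, where 1, *Msln*, was called higher in mutants. The 4 smooth muscle genes summed to 2349 to 2870 and 2778 to 3384 CPM in controls and mutants at E11.5, and to 1481 to 2017 and 2118 to 2506 CPM at E12.5. The 4 endothelium genes summed to 465 to 697 and 636 to 1031 CPM at E11.5 and to 764 to 795 and 718 to 957 CPM at E12.5. The 5 liver genes were uneven between libraries of a group, from 0.66 to 55.2 CPM in E11.5 mutants. No tested smooth muscle, endothelium, liver or skeletal muscle gene was called between genotypes by edgeR or DESeq2. Of the 11 skeletal muscle genes, only 3 were tested at E11.5 and 4 at E12.5. In E12.5 controls and then mutants, *Myh3* had 6, 12 and 2 and then 14, 176 and 33 reads. *Myog* had 10, 12 and 9 and then 12, 39 and 20, and *Myod1* 1, 4 and 0 and then 4, 17 and 9. The reads of *Mylpf*, *Actn3* and *Chrng* overlapped between genotypes at E12.5. At E12.5, 2 smooth muscle, 2 endothelium, 3 liver and 1 skeletal muscle gene had an unadjusted p under 0.05 by edgeR, and at E11.5, 3 endothelium genes did and 0 of the smooth muscle, liver and skeletal muscle genes.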
